A study of Mus musculus with 6 samples.

Results

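Mitochondrial ribosomal protein genes are nuclear genes for the protein components of the ribosome inside mitochondria. All rows of the expression table whose symbol is Mrps or Mrpl, a number and at most 1 further letter were taken, without use of their values. This gave 77 of 24341 genes: 29 named for the small subunit and 48 named for the large subunit. The libraries were RNA-seq of whole lungs from C57BL/6 mouse embryos at day E12.5. The groups were Mut, with the genotype Shh-Cre;Sin3a flox/flox, and hetCont, the controls, with Shh-Cre;Sin3a flox/+, each with 3 libraries. Both groups thus carried Cre, which the Shh gene's expression pattern directs to the lung epithelium, and the controls kept 1 unfloxed allele of Sin3a, a histone deacetylase corepressor scaffold. RNA came from all lung cells, so fewer cells of a type and less RNA per cell cannot be told apart. Nothing in the labels says whether the 3 libraries of a group came from separate litters or pools, so p-values measure the spread between these libraries only.

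The mitochondrial ribosome translates the few messenger RNAs encoded by mitochondrial DNA, which specify core subunits of the respiratory chain and ATP synthase. Its ribosomal RNAs are made in the organelle, while its proteins are made in the cytosol and imported, so the nuclear genes have to supply a full set of subunits. The small subunit binds messenger RNA and decodes it, and the large subunit joins amino acids and holds the exit tunnel at the inner membrane. Many of these proteins descend from bacterial ribosomal proteins, and others have no bacterial counterpart and are specific to mitochondria. Promoters of such genes are known for binding sites of ETS family factors (GABP among them), of NRF1 and of YY1.

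Values are FPKM, sequenced fragments scaled to the length of the transcript and the size of the library. Summed FPKM over all genes was 676961 to 738697 in hetCont and 627190 to 645621 in Mut, and depth relative to the library hetCont 1, estimated from genes with few fragments, ran from 0.504 (Mut 1) to 1.28 (Mut 2). Globin genes took 3.40% to 6.21% of the summed FPKM in hetCont and 2.30% to 3.17% in Mut. Sin3a itself measured 18.9 ± 0.479 FPKM in hetCont and 18.0 ± 1.45 FPKM in Mut (SD, n = 3, exact permutation test p = 0.6, 2-sided, the smallest possible being 0.1), which does not check the genotype since all exons of all lung cells were counted.

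The promoters of these genes were searched for the letters of known factor motifs, as a description of the sequences. RefSeq promoter windows of 300 bases (250 before the gene's start, GRCm38.p6) were found for 68 of the 77 members. The ETS letters CCGGAAG, on either strand, were in 24 of these 68 windows (35.3%), against 18.4% of the windows of 9587 tested genes and 9.12% of all 27025 windows. The YY1 letters AAGATGGC were in 12 windows (17.6%, against 4.82% of tested genes) and the NRF1 letters GCATGCGC in 8 (11.8%, against 5.65%). The CCAAT box (CCAAT) was in 27 windows (39.7%), near the 38.9% of tested genes, and the E-box CACGTG in 5 (7.35%, against 10.4%). The ZNF143 letters ACTACAA were in 5 windows (7.35%, against 4.31%) and the TATA letters TATAAA in 4 (5.88%, against 6.71%). Either ETS or NRF1 letters were in 28 windows, and 4 windows held both. ETS letters were in 11 of 26 small subunit windows and 13 of 42 large subunit windows, and NRF1 letters in 1 and 7. A match of letters is a description and not a shown binding site. The following 30-base stretches, each read 5′ to 3′ on the gene's own strand, show such letters at 8 of these members, with NRF1 or ETS letters in capitals. They are examples chosen without a fixed rule, and most come from members whose Mut libraries all lay below hetCont. They thus do not show whether such letters go with the change.
Mrps18b: aacggcccgacGCATGCGCactgggagcac
Mrpl39: aggagaggcgcGCATGCGCccccgcgtggc
Mrpl17: gccgagttactGCGCATGCgtcctctgaga
Mrpl32: gcggacttaacGCATGCGCtcagcccgcgt
Mrps27: tggtaggaccaCTTCCGGcggaggcgggct
Mrps22: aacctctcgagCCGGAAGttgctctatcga
Mrpl3: tgagaaacggaCCGGAAGtggcccggctgt
Mrpl33: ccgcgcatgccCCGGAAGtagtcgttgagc

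The NRF1 letters shown for Mrps18b begin 223 bases before its RefSeq start (chr17:35916645-35916674, minus strand) and those of Mrpl39 begin 123 bases before (chr16:84735349-84735378, minus). Mrpl17 (chr7:105811080-105811109, minus) and Mrpl32 (chr13:14613041-14613070, minus) hold them 11 and 22 bases before the start. Some of these members hold further matches. Mrps18b has NRF1 letters 28 bases and ETS letters 43 bases after its start, and Mrpl32 has NRF1 letters 66, 85 and 87 bases before its start. The ETS letters begin 48 bases before the start in Mrps27 (chr13:99344727-99344756, plus), 11 in Mrps22 (chr9:98601672-98601701, minus), 19 in Mrpl3 (chr9:105053238-105053267, plus) and 3 in Mrpl33 (chr5:31613937-31613966, plus). In the Mrpl33 stretch the NRF1 letters run just ahead of the ETS letters, in lower case. ETS letters were in 13 of 32 windows of members whose Mut libraries all lay below hetCont (40.6%), and in 11 of 36 windows of the other members (30.6%). Among the members shown, Mrpl39 measured 51.2, 54.0 and 50.4 FPKM in hetCont and 47.1, 43.1 and 41.1 FPKM in Mut. Mrpl3 measured 60.8 ± 4.04 against 50.5 ± 5.21 FPKM and Mrpl17 23.4 ± 1.04 against 21.1 ± 1.11 FPKM (SD, n = 3). None of these 3 passed the test (adjusted p = 0.156, 0.182 and 0.374), though their Mut libraries all lay below hetCont.

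All 77 members were expressed well above the filter of a mean of 1 FPKM, so none was lost to it. Mean levels in hetCont ran from 13.5 FPKM (Mrpl19) to 485 FPKM (Mrpl42), with 26 members at or below 62.3 FPKM and 26 at or above 124.6 FPKM. Among large subunit genes Mrpl42 (485 ± 41.6 FPKM), Mrpl33 (353 ± 33.1 FPKM) and Mrpl20 (337 ± 15.8 FPKM) had the highest mean in hetCont. Among small subunit genes these were Mrps21 (448 ± 29.3 FPKM), Mrps18c (326 ± 19.7 FPKM) and Mrps16 (161 ± 16.6 FPKM). The 2 lowest means over all libraries were those of Mrpl19 (13.5 ± 0.755 FPKM in hetCont) and Mrpl1 (18.4 ± 1.09 FPKM) among large subunit genes. Among small subunit genes they were those of Mrps25 (15.4 ± 0.780 FPKM) and Mrps31 (30.1 ± 2.75 FPKM). Subunits of a single particle thus differed widely in FPKM, a scale that divides by transcript length. Even so, the highest members of each subunit had short annotated transcripts (Mrpl42 661 and Mrps21 405 bases). The lowest had long ones (Mrpl19 5000 and Mrps25 6073 bases), though Mrps16, among the highest, had 2572 bases. Whether the annotated length set part of the spread in FPKM was not tested.

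Nearly all members were slightly lower in Mut than in hetCont, and few by enough to pass the test gene by gene. On simulated data the same test called 0 of 50 genes changed by 0.3 on the log2 scale and 18 of 50 changed by 0.6. The number of calls thus does not tell how many members changed by such amounts. Of the 77 log2 changes 74 were negative, where 51.3% of all 12742 tested genes had a negative change. In 37 members (48.1%) all 3 Mut libraries lay below all 3 hetCont libraries, against 14.6% of tested genes, and in 0 members did all Mut libraries lie above, against 14.9%. Limma called 2 members at an adjusted p under 0.05, where 3.34% of all tested genes were called. Both were lower in Mut, as were 1.63% of all tested genes. It called 0 members higher (1.71% of tested genes were), and 0 had an unadjusted p under 0.05 in that direction, while 31 had one in the lower direction (40.3%, against 11.7% of tested genes).

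Small subunit genes had a median log2 change of -0.23 on the log2(FPKM + 1) scale, with 28 of 29 negative and 15 whose groups did not overlap. Large subunit genes had a median of -0.24, with 46 of 48 negative and 22 whose groups did not overlap. The median of all tested genes was -0.01. Summed over the 29 small subunit genes, FPKM was 3247, 3229 and 2954 in hetCont 1 to 3 and 2605, 2757 and 2632 in Mut 1 to 3. Summed over the 48 large subunit genes, it was 6208, 6138 and 5518 in hetCont and 4843, 5094 and 4977 in Mut. The Mut sums lay below every hetCont sum in both subunits, with hetCont 3 the nearest control, and the ratio of the large to the small sum stayed between 1.85 and 1.91 in all 6 libraries. The members' share of all FPKM was 1.27% ± 0.0223 in hetCont and 1.20% ± 0.0292 in Mut (SD, n = 3).

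**Figure D1:**
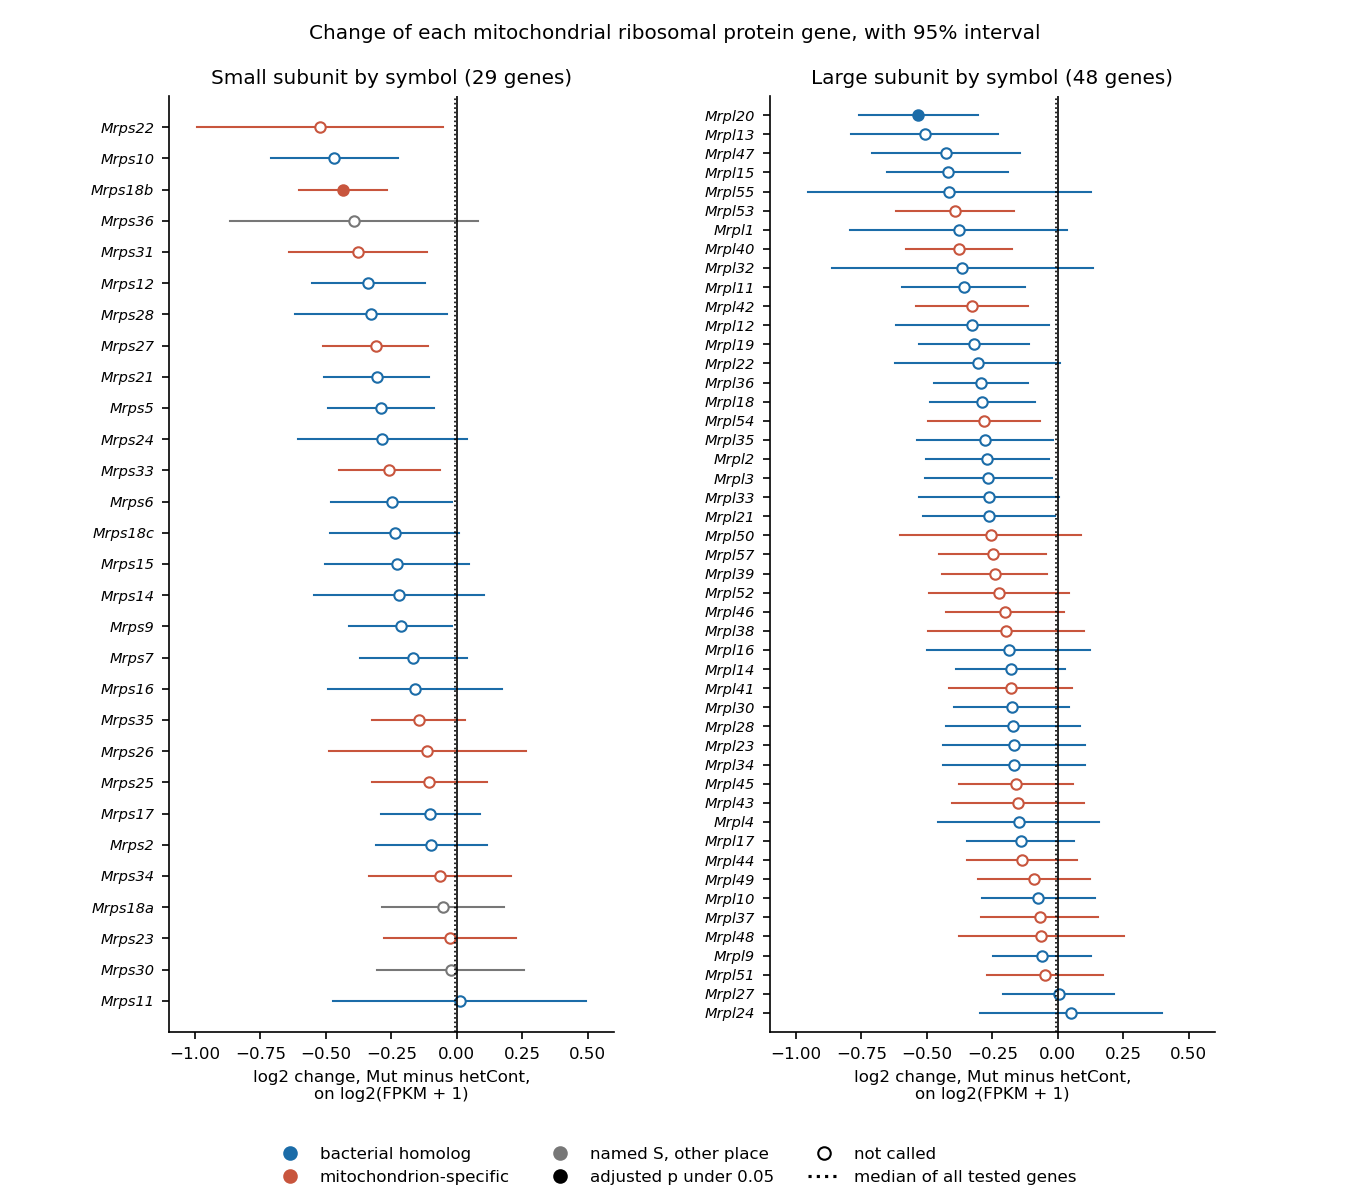
Log2 change (Mut minus hetCont, on log2(FPKM + 1), horizontal axis) of each of the 77 members, with its 95% interval from limma, small subunit genes on the left and large subunit genes on the right. Filled points passed an adjusted p of 0.05 (Mrps18b and Mrpl20), the dotted line is the median of all tested genes, and 74 of 77 points lie left of 0.

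How FPKM are scaled sets the size of these changes. When the other genes were rescaled to a common sum without globin and small RNA genes, the median of all genes rose to 0.11 and the medians of the small and large subunit genes became -0.10 and -0.12, with 60 of 77 members negative against 33.1% of all genes. Relative to the median of all genes, the small subunit median was -0.22 with FPKM as deposited and -0.21 rescaled, and the large subunit median -0.24 and -0.22. So the offset of the members from the median of all genes was similar on both scales, while their distance from 0 was not. Under rescaling 17 members were positive, among them Mrps18a, Mrps25 and Mrps30, and the calls of Mrps18b and Mrpl20 remained. Members lower at an unadjusted p under 0.05 numbered 31 with FPKM as deposited and 11 after rescaling. The share of all genes at that p after rescaling was not computed. Whether the groups of a member overlapped was read from FPKM as deposited only. Of all genes called, 48.8% were lower in Mut with FPKM as deposited and 17.1% after rescaling.

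**Figure D2:**
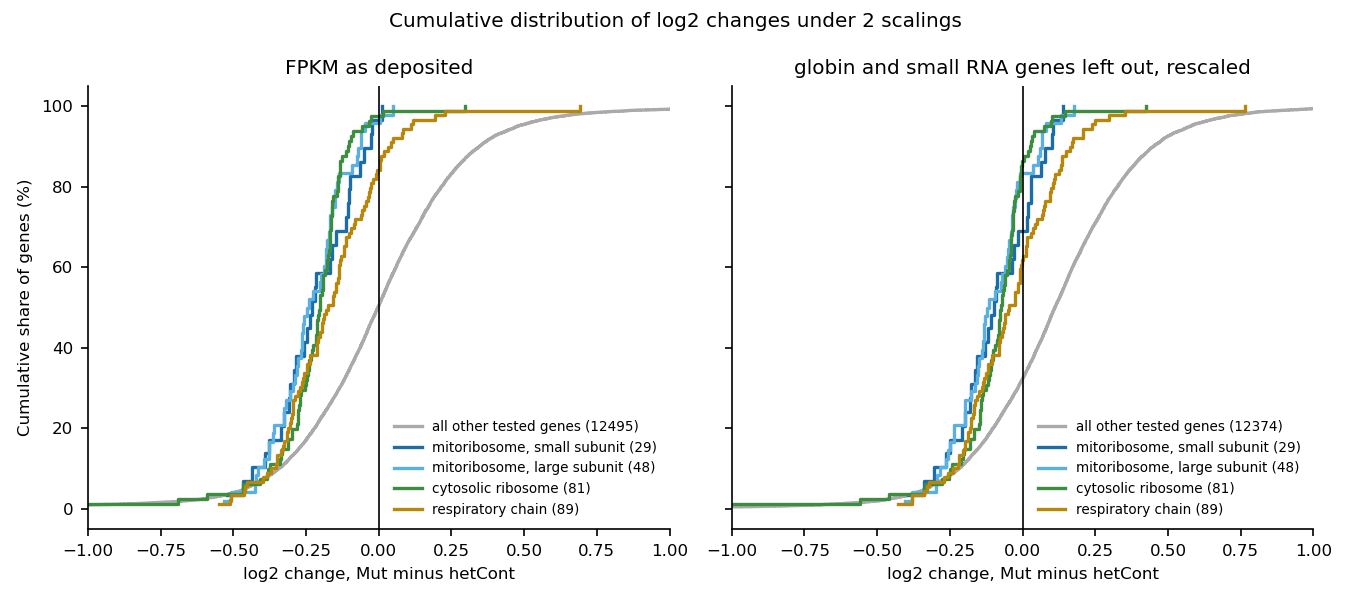
Cumulative share of genes (vertical axis, %) against the log2 change, Mut minus hetCont (horizontal axis), with FPKM as deposited on the left and rescaled without globin and small RNA genes on the right. On both sides the lines of the small and large mitoribosomal subunits lie left of the line of all other tested genes over most of the range, near that of the cytosolic ribosome. Rescaling shifts all lines nearly alike, so the right side is not a separate check of their order.

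Of the small subunit genes, Mrps18b passed the test. It is 1 of 3 mammalian relatives of bacterial protein S18 and is counted here with the mitochondrion-specific proteins, since Mrps18c takes the place of S18 in the particle. Its locus is on chromosome 17 from 35910385 to 35916369 (GRCm38). It measured 107, 108 and 104 FPKM in hetCont 1 to 3 and 77.3, 79.1 and 78.9 FPKM in Mut 1 to 3. The groups were far apart relative to their spread, and the mean was 1.36-fold lower in Mut (log2 change -0.43, SE 0.07, n = 3 per group, adjusted p = 0.0281). The call ended without any 1 hetCont library or without Mut 2, where adjusted p ran from 0.103 to 0.151, with log2 changes from -0.45 to -0.42. It also ended in both fits with the replicate number as a block, and was made in 12 of all 18 alternatives. An antisense gene model overlaps 30.5% of its exon bases on the other strand, and a processed pseudogene matches 417 bases of it at 99.8% identity. Reads of the antisense model cannot be told apart from its own in a library without strand. Reads of the pseudogene may be counted to it because the sequences are so alike.

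The other relatives of S18 did not pass the test. Mrps18c measured 335, 340 and 304 FPKM in hetCont and 298, 293 and 241 FPKM in Mut (log2 change -0.24, adjusted p = 0.231). All of its Mut libraries lay below the lowest control, Mut 1 and Mut 2 narrowly. Mrps18a, which structures of the particle place in the large subunit despite its name, measured 123 ± 12.3 FPKM in hetCont and 118 ± 7.82 FPKM in Mut, with overlapping groups.

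Small subunit members with bacterial homologs numbered 16, with a median log2 change of -0.23 and 0 called. In 9 all Mut libraries lay below (56.2%, against 14.6% of tested genes). At an unadjusted p under 0.05, 7 were lower (43.8%, against 11.7%). Mrps10, a protein of the subunit's head, measured 90.3, 108 and 88.7 FPKM in hetCont and 65.6, 73.9 and 66.8 FPKM in Mut. Its groups were separate, and the log2 change of -0.47 missed the threshold (adjusted p = 0.0577). Mrps12, which lines the decoding centre, measured 128, 122 and 125 FPKM against 99.5, 88.7 and 108 FPKM (log2 change -0.34, adjusted p = 0.0924). Mrps21, the most abundant of them, measured 461, 469 and 415 FPKM against 355, 385 and 346 FPKM, and Mrps5 56.7, 54.0 and 56.9 FPKM against 41.7, 47.5 and 47.5 FPKM (adjusted p = 0.0968 and 0.111). In each of these 4 genes the highest Mut library stayed below the lowest hetCont library. Mrps16 overlapped, at 161 ± 16.6 and 145 ± 24.3 FPKM. Mrps11, a platform protein, was the small subunit gene with a positive estimate: 67.7, 78.4 and 60.9 FPKM in hetCont and 58.6, 57.9 and 97.4 FPKM in Mut, so that 1 library, Mut 3, set its mean (log2 change 0.01, and -0.23 without Mut 3).

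Small subunit members specific to mitochondria numbered 10, with a median log2 change of -0.20 and 6 with all Mut libraries below (60%, against 14.6% of tested genes). Beside Mrps18b they include Mrps27, a protein with pentatricopeptide repeats, at 68.0, 62.7 and 66.7 FPKM in hetCont and 54.8, 48.8 and 55.2 FPKM in Mut (log2 change -0.31, adjusted p = 0.0949). Mrps31 measured 30.1 ± 2.75 against 23.0 ± 2.45 FPKM and Mrps33 141 ± 1.53 against 118 ± 8.59 FPKM (adjusted p = 0.111 and 0.125). Mrps22, in which human mutations cause mitochondrial disease, had the lowest estimate of the small subunit genes, with a log2 change of -0.52, and a wide interval from -0.99 to -0.05 (adjusted p = 0.178). It measured 73.7, 81.6 and 76.6 FPKM in hetCont and 69.4, 58.1 and 38.0 FPKM in Mut. Its Mut libraries were thus spread over a wider range than the gap between the groups. Mrps25, at 15.4 ± 0.780 and 14.3 ± 0.942 FPKM, overlapped, and 69.8% of its annotated exon bases are shared with Nr2c2 on the other strand.

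A pair of genes with S in their names belong elsewhere in addition to Mrps18a. Mrps30, a large subunit protein by structure, measured 71.9, 55.8 and 62.0 FPKM in hetCont and 62.1, 68.2 and 55.9 FPKM in Mut, with no separation (log2 change -0.02, adjusted p = 0.932). Mrps36, since assigned to the oxoglutarate dehydrogenase complex, measured 110, 139 and 117 FPKM in hetCont and 121, 96.7 and 67.5 FPKM in Mut. The 3 genes of this kind all overlapped between groups, and 4 pseudogenes match Mrps36 over at least 300 bases at 95% identity or more.

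Of the large subunit genes, Mrpl20 passed the test. Its bacterial counterpart L20 is needed early in assembly of the large subunit. Its locus is on chromosome 4 from 155803618 to 155808829, and it measured 354, 334 and 323 FPKM in hetCont and 232, 259 and 209 FPKM in Mut. Every Mut library was below every control, and the mean was 1.44-fold lower (log2 change -0.53, SE 0.10, n = 3 per group, adjusted p = 0.0365). As with Mrps18b, the call ended without any 1 hetCont library or Mut 2 (adjusted p from 0.0897 to 0.156), and it also ended without a filter on low values (0.0568) and without the intensity trend (0.0558). Both fits with the replicate number as a block did not make it either, and it was made in 10 of all 18 alternatives.

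**Figure D3:**
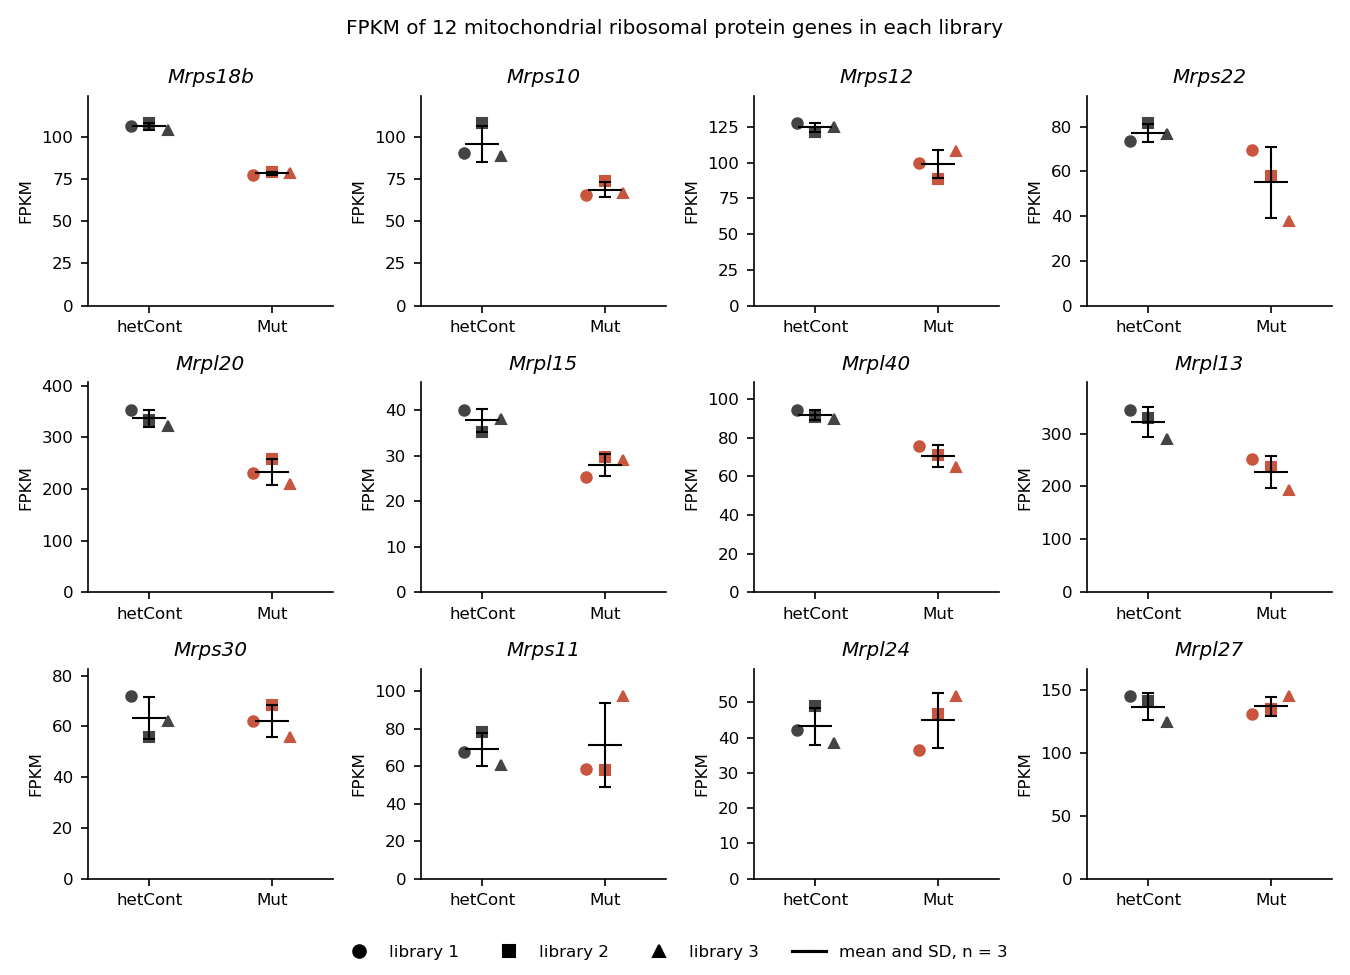
FPKM (vertical axis, from 0) of 12 members in each library, hetCont in grey and Mut in red, with the marker giving the library number and the bar the mean and SD (n = 3). In the 8 genes of the upper rows every Mut library lies below every hetCont library, and in Mrps30, Mrps11, Mrpl24 and Mrpl27 the groups overlap.

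Large subunit members with bacterial homologs numbered 30, with a median log2 change of -0.27. In 15 all Mut libraries lay below (50%, against 14.6% of tested genes). At an unadjusted p under 0.05, 13 were lower (43.3%, against 11.7%). Mrpl13 measured 345, 330 and 290 FPKM in hetCont and 251, 236 and 193 FPKM in Mut (log2 change -0.51, adjusted p = 0.0648). Mrpl15, whose bacterial relative binds the core of the large subunit RNA, measured 40.1, 35.1 and 38.0 FPKM against 25.2, 29.7 and 29.1 FPKM (log2 change -0.42, adjusted p = 0.0644). Both had separate groups and missed the threshold. Mrpl36, the mitochondrial form of bacterial L36, measured 136 ± 6.21 against 111 ± 3.95 FPKM, and Mrpl11, at the base of the stalk that engages translation factors, 30.6 ± 2.98 against 23.5 ± 1.26 FPKM (adjusted p = 0.0837 and 0.0970). Mrpl19 measured 13.5 ± 0.755 against 10.6 ± 0.224 FPKM (adjusted p = 0.0989), and 36.0% of its exon bases are shared with Gcfc2 on the other strand.

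Mrpl12 and Mrpl1 are examples of how unevenly the Mut libraries were spread. Mrpl11, also a stalk protein, was more even, at 22.1, 24.2 and 24.3 FPKM in Mut. Mrpl12, the stalk protein that binds translation factors, measured 232, 218 and 210 FPKM in hetCont and 145, 188 and 197 FPKM in Mut, with a log2 change of -0.33 and an adjusted p of 0.177. Mut 1 was the lowest and Mut 3 came close to the controls. Mrpl1, of the opposite stalk, measured 17.2, 19.2 and 18.9 FPKM in hetCont and 17.5, 14.9 and 10.3 FPKM in Mut, so that here Mut 1 lay within the controls and Mut 3 lowest (adjusted p = 0.253). Mrpl33 overlapped at 353 ± 33.1 and 294 ± 33.4 FPKM. Mrpl24, at the opening of the exit tunnel, and Mrpl27, near the site of peptide bond formation, were the large subunit genes with positive estimates (log2 changes 0.05 and 0.00). Mrpl27 measured 145, 142 and 124 FPKM in hetCont and 131, 135 and 145 FPKM in Mut, and Mrpl24 42.3, 48.9 and 38.5 FPKM in hetCont and 36.5, 46.7 and 51.8 FPKM in Mut, so their groups overlapped fully. Both estimates turned negative without Mut 3 or hetCont 3, and Mrpl27 and Mrps11 also turned negative with equal library medians.

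Large subunit members specific to mitochondria numbered 18, with a median log2 change of -0.20 and 0 called. In 7 all Mut libraries lay below (38.9%, against 14.6% of tested genes). At an unadjusted p under 0.05, 6 were lower (33.3%, against 11.7%). Mrpl40 measured 94.5, 90.6 and 89.8 FPKM in hetCont and 75.9, 70.8 and 64.7 FPKM in Mut (log2 change -0.38, adjusted p = 0.0608). Mrpl42, the most abundant member, measured 504, 513 and 437 FPKM against 404, 387 and 366 FPKM (log2 change -0.33, adjusted p = 0.0955). Both had separate groups. Mrpl53 measured 182 ± 11.6 against 138 ± 12.8 FPKM (adjusted p = 0.0696), with 88.0% of its exon bases shared with another gene model on the same strand. Across both subunits, 17 members shared at least 10% of their exon bases with another annotated gene, and 17 had a transcript of a gene elsewhere matching at 95% identity over at least 300 bases, so their FPKM may hold reads of those genes. Mrps11 and Mrpl46, a gene of each subunit, overlap each other on opposite strands.

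Mitoribosomal proteins that carry other names followed the same direction. Of 6 tested, all had negative changes, as did 51.3% of all tested genes. Their median was -0.34, and 1 was called lower, as were 1.63% of all tested genes. The called gene was Chchd1, a small subunit protein with a CHCH fold. It measured 296, 271 and 267 FPKM in hetCont and 209, 199 and 164 FPKM in Mut (1.46-fold lower, log2 change -0.55, adjusted p = 0.0439). Ptcd3, a pentatricopeptide repeat protein of the small subunit, measured 112 ± 6.92 against 82.7 ± 18.5 FPKM (adjusted p = 0.154).

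Genes that build, regulate or serve the particle had medians of -0.21 to -0.10 by list. Of all tested genes, 51.3% had a negative change and 1.63% were called lower. Among 27 tested genes for mitoribosome assembly and ribosomal RNA modification, 17 had negative changes (median -0.11), 1 fell and 0 rose. At an unadjusted p under 0.05, 1 was higher and 4 were lower (14.8%, against 11.7% of tested genes). The gene that fell, C1qbp, encodes a matrix protein that binds mitochondrial RNA, and measured 139, 139 and 137 FPKM in hetCont and 94.6, 113 and 100.4 FPKM in Mut (1.35-fold lower, adjusted p = 0.0493). Fastkd2, which binds the large ribosomal RNA, measured 28.1 ± 1.11 against 19.9 ± 4.04 FPKM (adjusted p = 0.109). Of 17 translation factors and activators 14 had negative changes (median -0.10), with 0 called and 4 lower at an unadjusted p under 0.05 (23.5%). Among these 4 were Taco1, the activator of Cox1 translation (11.1 ± 1.45 against 8.26 ± 1.21 FPKM), and Lrpprc, which stabilises mitochondrial messenger RNAs (35.3 ± 1.07 against 30.1 ± 0.847 FPKM).

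Of 16 genes for synthesis and processing of mitochondrial DNA and RNA, 13 had negative changes (median -0.21) and 0 were called. At an unadjusted p under 0.05, 1 was lower (6.25%, against 11.7% of tested genes). It was Ssbp1, the single-stranded DNA binding protein (97.3 ± 1.89 against 78.0 ± 12.1 FPKM). Tefm, the mitochondrial transcription elongation factor, measured 26.9 ± 1.94 against 22.4 ± 2.87 FPKM. Of 11 transcriptional regulators known to act on mitochondrial genes, 10 had negative changes (median -0.18), against 51.3% of tested genes. At an unadjusted p under 0.05, 1 was lower (9.09%, against 11.7%). The same gene was called lower, as were 1.63% of tested genes. That gene, Mycn, a growth-promoting transcription factor of the MYC family, measured 29.3 ± 5.99 against 16.6 ± 1.68 FPKM (1.77-fold lower, adjusted p = 0.05 as rounded, just under the threshold). Esrra, an orphan nuclear receptor, measured 4.98 ± 0.937 against 3.77 ± 0.272 FPKM (adjusted p = 0.245). Transcripts encoded in mitochondrial DNA, the templates of this ribosome, were not analysed here.

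Other large groups of genes also had negative medians. Cytosolic ribosomal protein genes had a median log2 change of -0.20, with 79 of 81 negative, 3 called lower (1.63% of all tested genes were) and 42 whose Mut libraries all lay below hetCont (51.9%, against 14.6% of all tested genes). Nuclear-encoded respiratory chain genes had a median of -0.18, with 75 of 89 negative, 3 called lower and 28 below (31.5%). After rescaling without globin and small RNA genes these medians were -0.07 (cytosolic) and -0.05 (respiratory chain), where the median of all genes was 0.11. The differences between these groups of genes and the members were not tested.

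Cell makeup markers moved alongside. Of all tested genes, 1.63% were called lower and 1.71% higher. Proliferation markers were lower, with 12 of 12 negative, 5 called lower, and a summed level of 1773 to 1881 FPKM in hetCont and 1390 to 1462 FPKM in Mut. Epithelial markers summed to 286 to 358 FPKM in hetCont and 73.4 to 107.6 FPKM in Mut (9 of 11 called lower). Erythroid markers summed to 23000 to 45810 FPKM in hetCont and 14700 to 19800 FPKM in Mut (2 of 10 called lower). Mesenchymal, leukocyte, endothelial, heart muscle and mesothelial markers were higher in sum in every Mut library than in any hetCont library, with 4 of 10, 2 of 7, 1 of 7, 1 of 5 and 1 of 5 tested markers called higher, 2 mesenchymal markers called lower, and 0 markers of these lists at the floor in all libraries. Neuronal markers summed to 17.82 to 39.99 FPKM in hetCont and 20.2 to 30.9 FPKM in Mut, with 0 of 5 tested markers called and 0 at an unadjusted p under 0.05. Their part in the members' lower levels was not tested.

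The Mut libraries differed among themselves by the base composition of the transcripts. Mrps22, Mrps36 and Mrpl32 were 0.85, 0.83 and 0.91 higher on the log2 scale in Mut 1 than in Mut 3, whereas Mrpl55 and Mrps11 were lower in Mut 1, with differences of -0.89 and -0.72. Mrpl32 measured 124, 83.3 and 65.7 FPKM in Mut 1 to 3, where Mrpl55 ran the other way, at 66.9, 93.8 and 124.5 FPKM, and both overlapped with hetCont. Over the 77 members, Spearman's rho between this difference and GC content was -0.67, and over the 12586 other tested genes it was -0.70, a description of a pair of libraries across genes that share them. In the 26 members with the lowest GC content (40.83% to 48.96%) the median difference was 0.19, and in the 26 with the highest (52.73% to 60.57%) it was -0.26. The change between the groups had a weaker relation to GC content (rho 0.14 over the members and 0.26 over the other tested genes), with member medians of -0.26 and -0.20 in the same sets of 26. After each library was corrected for GC content and transcript length, 71 of 77 members remained negative, the medians were -0.18 (small) and -0.19 (large), and limma called 18 members lower and 0 higher, against 6.02% of all genes called lower in that fit.

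**Figure D4:**
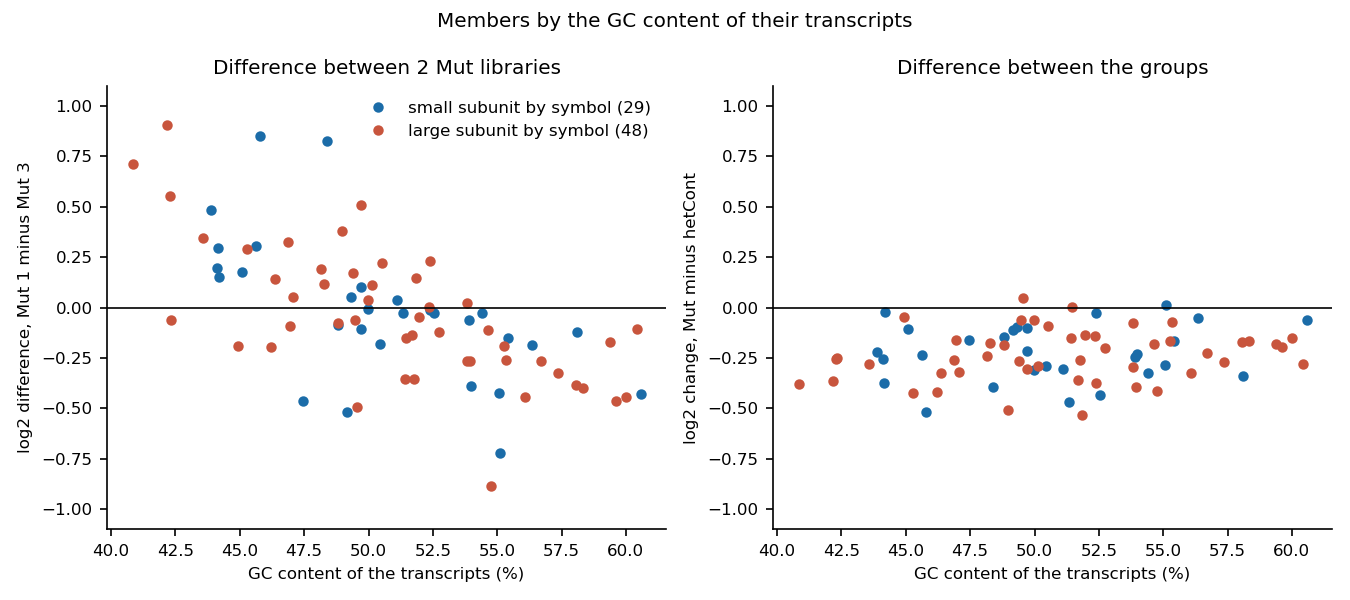
Members by the GC content of their transcripts (horizontal axis, %), with the log2 difference between Mut 1 and Mut 3 on the left and the log2 change of the groups on the right, on the same vertical range. On the left the points fall from above 0 at low GC to below 0 at high GC, and on the right they stay mostly between 0 and -0.53 along the whole range.

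Members that passed after that correction were Mrps5, Mrps7, Mrps10, Mrps18b and Mrps21 in the small subunit and 13 in the large subunit, among them Mrpl13, Mrpl20, Mrpl36, Mrpl40, Mrpl47 and Mrpl53. At a looser adjusted p of 0.1 without the correction, 15 members were lower (5 small, 10 large), where 4.41% of all tested genes were. Over all alternatives, 60 of the 77 members kept a negative change in every fit and 17 had a positive one in at least 1 fit.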

How the data were processed

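The deposited values are FPKM per gene and library, made by the authors with TopHat, Bowtie2 and Cufflinks on mm10 (GRCm38), per the submitters' processing notes. Their versions, roles and gene annotation: not given in the sources used here. Per the labels' protocols, cDNA came from a SMARTer Ultra Low Input kit with Nextera indices and 75 bp paired reads, which does not keep strand. Absolute depth is unknown. The table held 24341 genes, and 3 with a failure mark were left out.

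The 12742 genes whose mean reached 1 FPKM were compared on log2(FPKM + 1). The test was limma (version 3.58.1, R version 4.3.3), using an intensity trend and Benjamini-Hochberg adjustment. Adjusted p-values are from this fit, which was tested on simulated data, unless another fit is named beside them. Intervals are 95%. Log2 changes understate those of low genes. Loci are those of the table, counted from 1, and 11 members share a locus row with other genes. Exon overlaps, GC content and length came from GENCODE M21, near copies from BLAST 2.17.0, and promoter windows from RefSeq (GRCm38.p6, the window listed first for each symbol). Python 3.11.15 and matplotlib 3.10.9 drew the plots.

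Named members were, in each subunit, the 8 with the smallest p, the 2 highest and 2 lowest changes, the 3 highest control levels and the 2 lowest levels, and every called gene; in the other lists, the 2 smallest p and every called gene. Mrps7, Mrps18a, Mrps36, Mrpl3, Mrpl12, Mrpl17, Mrpl32, Mrpl39, Mrpl46, Mrpl47 and Mrpl55 were added after their values were seen. Members and lists were chosen with earlier results of these data known. Alternatives were 2 other filters, another pseudocount, 3 scalings, 2 variance settings, a threshold, a replicate block, a GC and length correction (loess span 0.3; 99.4% of tested genes had both values), the correction with the block, and each library left out.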

Additional observations from a re-analysis of the deposited data

How the results depend on the processing

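Over all tested genes 426 were called, with 1 small and 1 large subunit gene lower. Members called higher numbered 0 in this fit and in all 18 alternatives. All called genes numbered 242 without a filter, 1014 after rescaling without globin and small RNA genes, 1138 at an adjusted p under 0.1, and 1424 after the GC and length correction. Large subunit genes called lower numbered 0 without a filter and without the trend, 2 with equal library medians, 10 at the looser threshold and 13 after the GC and length correction, and small subunit genes numbered 5 under both of the last. After that rescaling, the medians of the small and large subunit genes were -0.0996 and -0.118, the cause being the rescaling itself. Leaving out 1 library at a time gave 58 to 826 called genes, 0 to 1 small and 0 to 4 large subunit genes lower, and medians of -0.262 to -0.164 (small) and -0.272 to -0.187 (large). Counts were 62, 65 and 59 without hetCont 1, 2 or 3 and 826, 58 and 402 without Mut 1, 2 or 3; the cause was not tested.

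With the replicate number as a block, 52 genes were called, 0 of them members, and with the GC and length correction added 320, with 1 small (Mrps10) and 1 large (Mrpl13) subunit gene lower, so neither Mrps18b nor Mrpl20 was called in these fits. Nothing in the labels says that the numbers pair the samples. Same-numbered libraries had correlations of deviations of -0.0893, -0.0778 and -0.0263, and differently numbered ones -0.0341 to 0.0873. Such values cannot show whether libraries shared a litter or batch. Signs turned for Sin3a (0.0496), Mrps30 (0.105) and Mrps25 (0.0174) after rescaling without globin and small RNA genes, for Mrps11 (-0.0098) and Mrpl27 (-0.0183) with equal library medians, and for Mrps30 after the GC and length correction (0.0446, also with the block). Leaving out 1 library gave -0.108 to 0.0716 for Mrps30, -0.232 to 0.138 for Mrps11, -0.0645 to 0.046 for Mrpl27 and -0.0582 to 0.189 for Mrpl24. The depth of each library is unknown, and with it the counting error of single values.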
